A study of Mus musculus with 16 samples.

Results

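SZN-1326-p is a Frizzled-directed activator of Wnt signalling. The comparison described here is between the 3 mice taken 48 h after its dose and the 3 taken 24 h after it. All mice whose arm is SZN-1326-p entered, which the deposited annotation calls SWAP. These were 6 of the 16 mice of the series, with 9884 of 22717 cells and 4381 of 10373 epithelial cells. Each mouse was 1 library and 1 replicate. Levels were averaged per mouse over all cells of the epithelial layer, and in each annotated cell type with at least 20 cells in every one of the 6 mice.

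All 16 mice were female C57Bl/6J, 7 weeks old at acclimatisation, and the 12 injured ones drank 4% dextran sulfate sodium (DSS), which damages the colon epithelium, from day 0 until tissue was taken. On day 4 they received 10 mg/kg of SZN-1326-p or an anti-GFP control antibody. The 24 h mice were taken on day 5 and the 48 h mice on day 6, so time after the dose, days on DSS and day of collection cannot be told apart within SZN-1326-p mice. The 3 anti-GFP mice of each day, with the same DSS schedule, and 2 uninjured mice of each day are set beside them. Cells of the transverse colon came from a sorted mix of an epithelial and a lamina propria preparation, so shares of cells describe that mix and not the tissue.

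Wnt ligands bind a Frizzled receptor and an LRP co-receptor, which stabilises beta-catenin and turns on TCF/LEF target genes such as Axin2, Rnf43 and Lgr5. In the colon the signal is strongest at the crypt base, where stem cells divide into transit-amplifying (TA) cells. TA cells divide a few more times and then leave the cycle as precursors of absorptive colonocytes, which take up salt, water and short-chain fatty acids. The type names StemCell, TA1, TA2, EnteroPrecur, AltEnteroPC, AltEnterocyte and the like are those of the authors.

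At 24 h the 3 mice gave 1290 to 1838 cells each and 14961208 to 15378570 UMIs (unique molecular identifiers, each standing for 1 captured RNA molecule). At 48 h they gave 1463 to 2033 cells and 16575709 to 18585110 UMIs. Epithelial cells numbered 799, 961 and 545 in mice 1, 2 and 3 at 24 h, and 510, 449 and 1117 at 48 h. The whole-library median mitochondrial share of UMIs was 9.21%, 18.9% and 9.66% at 24 h and 7.06%, 6.54% and 24.1% at 48 h, so 24 h mouse 2 and 48 h mouse 3 stood apart. Epithelial cells were 961 of 1646 and 1117 of 2033 cells in these 2 mice, the largest parts among the 6. Within epithelial cells the median mitochondrial share lay between 30.2% and 36.0% in all 6 mice. The name mice of high mitochondrial share used below thus refers to whole libraries and not to epithelial cells. The library of 24 h mouse 1 was rich in long transcripts, at a long-minus-short difference of 0.56 log2 against at most -0.14 in the other 5. Between the 6 mice, 14 cells carried a barcode sequence found in more than 1 of these libraries.

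EnteroPrecur had the largest change in share among the 17 epithelial types. It formed 0.250%, 0.416% and 2.20% of epithelial cells in the 3 mice at 24 h, which were 2, 4 and 12 cells. At 48 h it formed 36.3%, 34.5% and 42.4%, which were 185, 155 and 474 cells. The exact 95% binomial intervals ran up to 3.81% at 24 h and began at 30.1% at 48 h, and cover counting error only. The mean went from 0.956% ± 1.08 to 37.7% ± 4.16 (SD, n = 3 and 3). The exact two-sided permutation test gave p = 0.1, the smallest that its 20 arrangements allow (adjusted 0.212). In a limma fit of the 17 epithelial types, the change of 5.76 log2 (SE 0.985) had an adjusted p of 0.000698. Types called by that fit were 4 of 17 (23.5%), and 8 of 17 (47.1%) did not overlap between the days.

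The same type went from 0.218%, 0% and 1.21% to 3.40%, 3.76% and 9.90% in anti-GFP mice, a change of 3.69 log2. The difference between the arms was 2.07 log2 (SE 1.39), with an adjusted p of 0.301 in limma, so a larger change with SZN-1326-p did not pass its test. Uninjured mice held 0.928% and 10.3% on day 5 and 15.2% and 10.3% on day 6. All 3 SZN-1326-p mice at 48 h therefore lay above every anti-GFP and uninjured mouse in this type.

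TA cells took a smaller part of the epithelium on the later day. TA1 and TA2 together, pooled after the data were seen, formed 50.7%, 40.3% and 36.3% at 24 h and 22.2%, 28.7% and 17.6% at 48 h. The mean went from 42.4% ± 7.42 to 22.8% ± 5.58 (SD), with no overlap between mice and an exact permutation p of 0.1. In anti-GFP mice the mean was 23.4% and then 23.3%. Shares add up to the whole, so the rise of EnteroPrecur by itself lowers that of every other type. Among epithelial cells other than EnteroPrecur in SZN-1326-p mice, TA cells were 405 of 797, 387 of 957 and 198 of 533 at 24 h. At 48 h they were 113 of 325, 129 of 294 and 197 of 643, and on this base the days overlapped. The split of TA cells into TA1 and TA2 followed single libraries. TA1 held 377 cells of 24 h mouse 1 and at most 29 of any other of the 6, so the names were not compared separately. The lower TA share held for the epithelium as deposited. With only the cells of at most 20% mitochondrial UMIs, 56 to 193 per mouse, it turned to 0.43 log2 higher at 48 h. EnteroPrecur remained 4.01 log2 higher there.

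StemCell cells, named for the crypt base, had 0.501%, 5.20% and 4.04% of the epithelium at 24 h and 10.4%, 10.9% and 11.1% at 48 h. The 3 later mice lay close together and above all earlier ones, and the change of 2.24 log2 had an adjusted p of 0.0827 in limma. Anti-GFP mice had 0.654%, 0.308% and 8.72% at 24 h and 5.53%, 6.58% and 6.77% at 48 h, with overlapping days. AltEnteroPC, named as a precursor type, had 18.0%, 13.1% and 17.8% against 13.3%, 17.4% and 12.7%, with overlapping days. Stem and TA cells together went from 45.7% to 33.6% of the epithelium, a share that the rise of EnteroPrecur by itself lowers. Among epithelial cells other than EnteroPrecur their mean share was higher at 48 h, with overlapping days. With only the cells of at most 20% mitochondrial UMIs, the share of stem and TA cells in the epithelium was 0.60 log2 higher at 48 h.

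Several differentiated types had lower shares at 48 h, which the rise of EnteroPrecur by itself also lowers. Among epithelial cells other than EnteroPrecur, AltEnterocyte, AltEnterocyte2, AltEnterocyte3, tuft and BasalGoblet cells were still lower without overlap. AltEnterocyte2, an absorptive type, fell from 2.63%, 8.12% and 3.85% to 0.392%, 0.223% and 0%. Its change of -4.51 log2 had an adjusted p of 0.00084 in limma, and 0 of 1117 cells allows a share of up to 0.269%. Uninjured mice held it as well, at 0.412% and 1.20% on day 5 and 2.89% and 6.38% on day 6. AltEnterocyte3 fell from 5.63%, 10.7% and 3.12% to 1.18%, 0% and 1.16% (-3.39 log2, adjusted p 0.0158 in limma), where 0 of 449 cells allows up to 0.668%. AltEnterocyte3 was lower on the later day in anti-GFP mice too, at 10.9%, 4.62% and 2.42% and then 1.70%, 2.19% and 2.08%. Tuft cells, the chemosensory cells of the epithelium, fell from 1.63%, 1.35% and 3.30% to 0.784%, 0.445% and 0.448% (-1.69 log2, adjusted p 0.0364 in limma).

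In anti-GFP mice AltEnterocyte2 went from a mean of 13.6% to 4.35% and tuft cells from 2.06% to 3.64%. The difference of the time change between the arms was -2.86 log2 for AltEnterocyte2 (adjusted p 0.174 in limma) and -2.51 for tuft cells (adjusted p 0.104). None of the 17 types passed that test in limma, and 3 (17.6%) had an unadjusted p under 0.05. BasalGoblet, a mucus-secreting type, had 9.01%, 8.84% and 11.01% against 4.90%, 2.67% and 4.30%, without overlap (-1.30 log2, adjusted p 0.082 in limma). Anti-GFP mice had 15.0%, 13.2% and 12.6% against 7.23%, 14.7% and 5.73% of BasalGoblet, with overlap. AltEnterocyte had 6.63%, 4.47% and 4.77% against 1.96%, 2.45% and 2.06% (-1.24 log2, adjusted p 0.0827 in limma). Its share in anti-GFP mice was 5.66%, 14.8% and 6.30% against 22.1%, 10.7% and 10.4%. Among immune types limma called 0 of 11, with 2 (18.2%) at an unadjusted p under 0.05, and among stromal types 0 of 18, with 3 (16.7%).

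**Figure D1:**
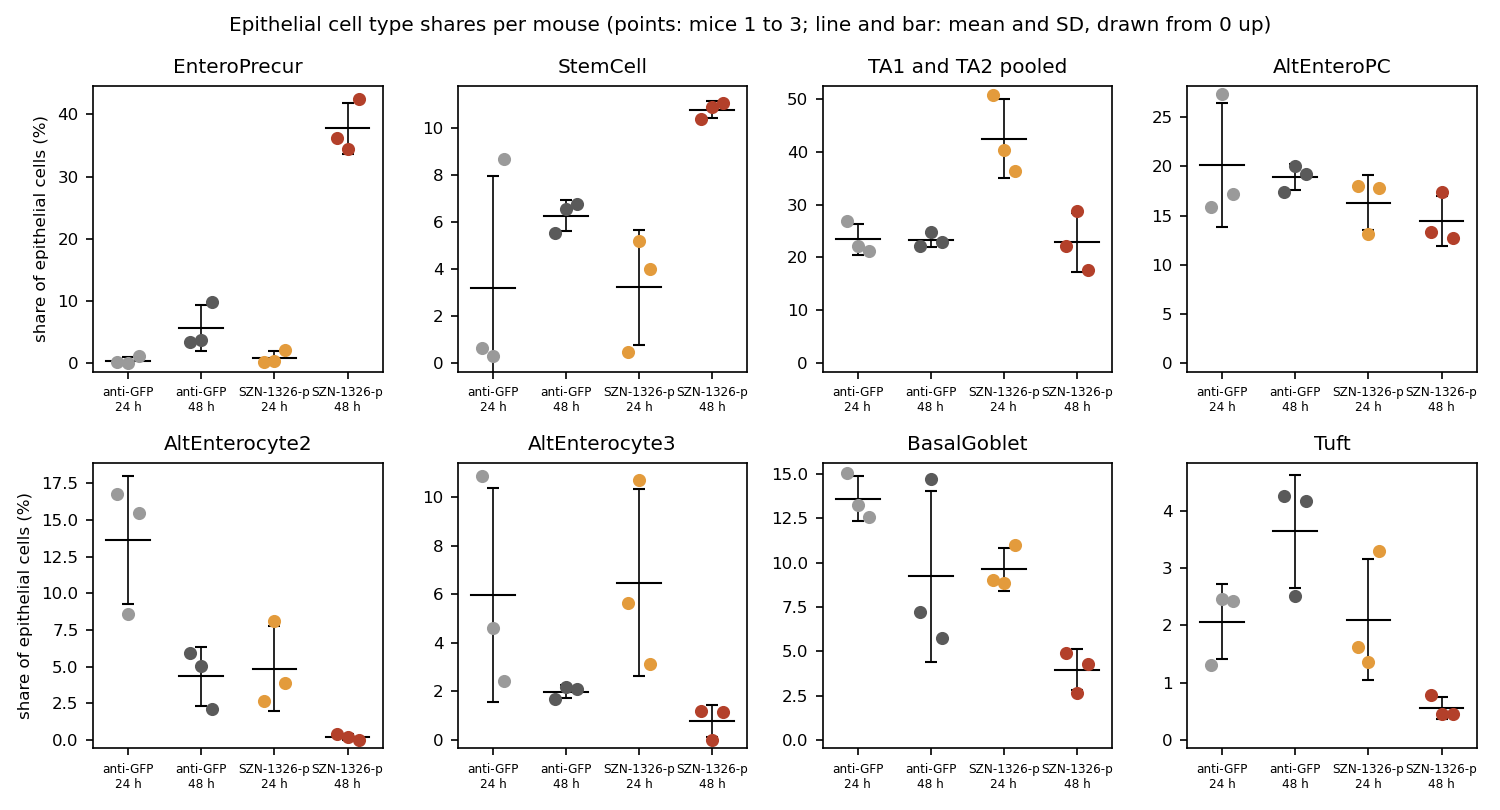
Share of epithelial cells (%) in 8 cell types per mouse, by arm and time. Each point is 1 mouse, the line is the mean and the bar the SD, drawn from 0 up. EnteroPrecur lies at 34.5% to 42.4% in the 3 SZN-1326-p mice at 48 h and at most 9.90% in the others.

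EnteroPrecur was checked against marker genes over its 832 cells in SZN-1326-p mice. Relative to the whole epithelium of these mice, its mean level was -1.63 log2 for TA markers (Mki67, Top2a and others), -0.62 for stem markers and -2.49 for colonocyte markers (Car1, Car4, Krt20 and others). In the same units AltEnteroPC had -0.86 for TA and 0.18 for colonocyte markers, TA2 had 1.20 for TA markers, and StemCell had 1.44 for stem markers. The colonocyte markers of EnteroPrecur were below those of AltEnteroPC and above those of TA2 (-2.71), TA1 (-3.26) and StemCell (-3.43). EnteroPrecur was thus low in division markers, as StemCell was at -1.06 for TA markers. In colonocyte markers EnteroPrecur lay a little above TA2 and far below AltEnteroPC.

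The step from TA to EnteroPrecur was described by setting EnteroPrecur cells of the 3 mice at 48 h beside TA cells of the 3 mice at 24 h. The types were defined from the same genes, so this has no test. Of 9766 genes compared, 169 were over 2-fold higher and 337 over 2-fold lower, with 0.1 added to both levels, and the median was 0.01 log2. Of 38 mitosis genes, 37 were over 2-fold lower, with a median of -2.24 log2. Of 38 DNA replication genes, 30 were, with a median of -1.37 log2. Of 29 colonocyte genes, 6 were over 2-fold higher and 1 over 2-fold lower, with a median of 0.52 log2. Of 16 ion and water transport genes, 4 were over 2-fold higher and 0 over 2-fold lower, with a median of 0.60 log2.

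Division genes were low in EnteroPrecur. Mki67, a proliferation marker, had 6.75, 3.76 and 3.17 normalised UMIs per cell in TA cells at 24 h. Its EnteroPrecur levels at 48 h were 0.297, 0.268 and 0.309. TA cells of the 48 h mice themselves still held 3.44, 3.71 and 4.27. Top2a, the topoisomerase that untangles chromosomes, showed the same order, with means of 2.86 in TA cells at 24 h, 3.10 in TA cells at 48 h and 0.133 in EnteroPrecur. In pooled TA cells, 36 of 38 mitosis genes had a positive change from 24 h to 48 h, with a median of 0.39 log2. Of 38 DNA replication genes 30 had a negative change there, with a median of -0.19 log2, and no gene of either list passed the test.

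B3gnt7, Cyp2c68 and Adh1 had the highest ratios in the other direction. B3gnt7, which adds N-acetylglucosamine to sugar chains, had 0.111, 0.0838 and 0.0577 in TA cells at 24 h, 0.395, 0.622 and 1.11 in TA cells at 48 h, and 2.07, 2.68 and 3.98 in EnteroPrecur. Adh1, an alcohol and retinol dehydrogenase, had 0.556, 0.107 and 0.413, then 0.932, 1.05 and 1.55, and 2.68, 3.19 and 3.87. The ratio of EnteroPrecur to TA at 24 h was 16.3-fold for B3gnt7, 10.99-fold for Cyp2c68, 7.30-fold for Adh1 and 4.36-fold for Slc5a8. For each of these genes the TA cells of the 48 h mice had a mean between those of TA at 24 h and EnteroPrecur.

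Reg3b, a secreted antimicrobial lectin, was the gene furthest lower, but its TA level was uneven. It had 8.31, 139 and 40.1 in TA cells at 24 h against 2.96, 2.58 and 5.02 in EnteroPrecur. AltEnteroPC of the 48 h mice held 102, 44.6 and 29.9. The Wnt target Axin2 had 0.175, 0.153 and 0.132 in TA cells at 24 h, 0.0805, 0.136 and 0.116 in TA cells at 48 h, and 0.0662, 0.0681 and 0.0706 in EnteroPrecur. EnteroPrecur cells of uninjured mice on day 6 had 0.199 and 0.156, above the SZN-1326-p mice. Il18, an epithelial cytokine, was in turn higher in EnteroPrecur of SZN-1326-p mice, at 3.17, 3.01 and 3.09 against 1.02 and 0.882 in those 2 uninjured mice. The uninjured mice had neither DSS nor SZN-1326-p, which cannot be told apart in these 2 comparisons. No anti-GFP mouse held more than 19 EnteroPrecur cells, so that arm could not be set beside them. Uninjured mouse 2 of day 5, with 121 such cells, is not shown.

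**Figure D2:**
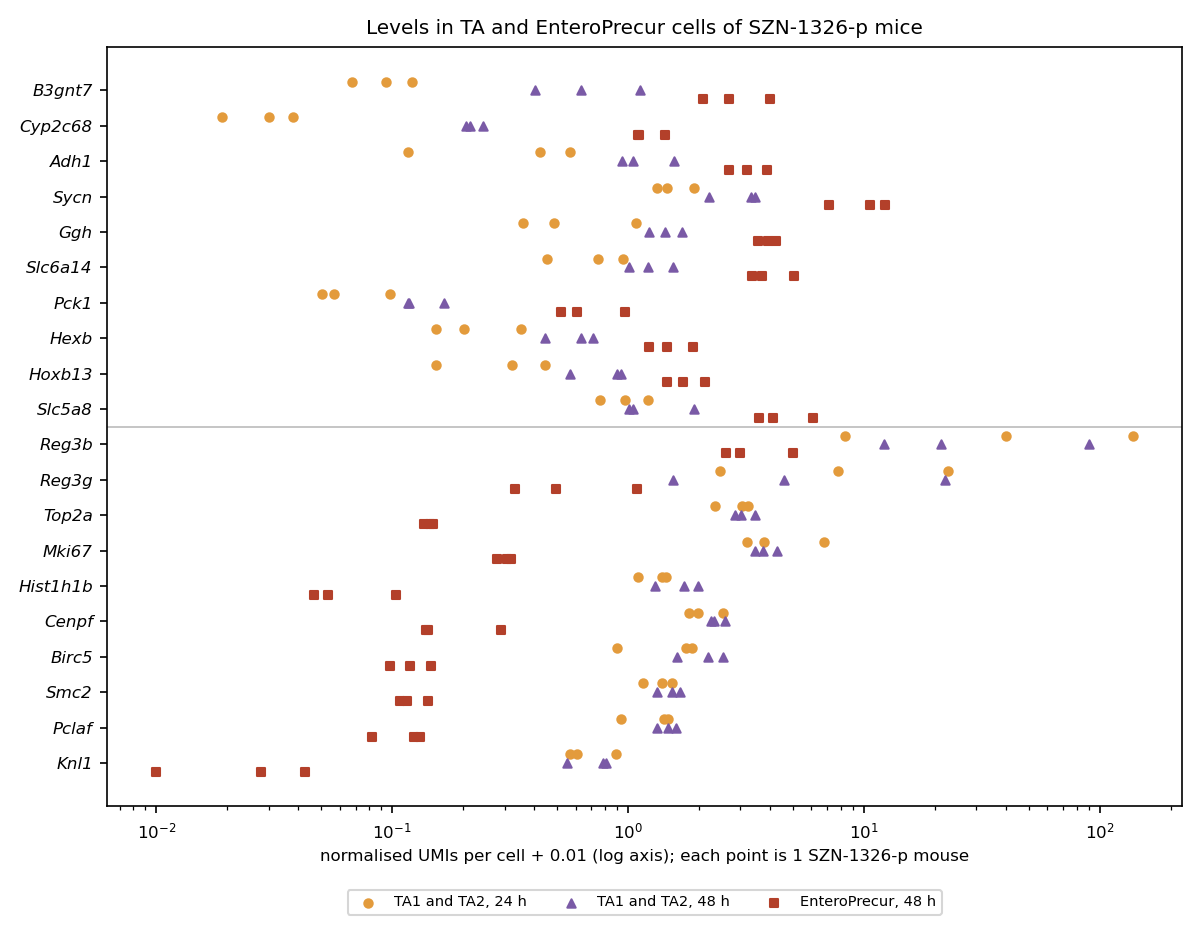
Mean level per mouse (normalised UMIs per cell plus 0.01, log axis) of the 10 genes highest and the 10 lowest in EnteroPrecur at 48 h relative to TA at 24 h. Each point is 1 SZN-1326-p mouse. Division genes below the line are lower in EnteroPrecur than in TA cells of either day, as in Mki67 at 0.268 to 0.309.

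Averaged over all epithelial cells, 332 of 10795 genes (3.08%) differed between the days at an adjusted p under 0.05 in limma, 102 higher (0.945%) and 230 lower (2.13%) at 48 h. These averages combine the mix of types with the level within each type, and fewer cells of a type cannot be told apart from less RNA per cell. Without EnteroPrecur cells 51 genes remained called, 12 higher and 39 lower, and 49 of them were among the 332. The split between higher and lower also depended on the scale: the mean of the deposited log2 values called 150 higher and 49 lower. Without 24 h mouse 2 there were 90 calls, without 48 h mouse 1, 2 or 3 there were 221, 130 or 103, and without both mice of high mitochondrial share there were 14. With only cells of at most 20% mitochondrial UMIs there were 3. In anti-GFP mice 2 genes (0.0185%) passed, with 1331 (12.3%) at an unadjusted p under 0.05 against 1779 (16.5%) in SZN-1326-p mice. Without anti-GFP 24 h mouse 3 the anti-GFP calls numbered 200, 165 higher and 35 lower, and without any other anti-GFP mouse 3 or 4.

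The promoters of 4 genes are shown: Cyp2c68, Adh1 and B3gnt7, which were among the largest rises and had the highest ratios in EnteroPrecur, and Slc51a from the largest falls. Sequences are from RefSeq (GRCm38.p6), 250 bases before to 50 after 1 transcription start, 5′ to 3′ on the gene's strand. Capitals mark the HNF4 motif CAAAGTCCA in Cyp2c68 and the E-box CACGTG in the other 3.
Cyp2c68 (chr19:39741052-39741351, minus strand): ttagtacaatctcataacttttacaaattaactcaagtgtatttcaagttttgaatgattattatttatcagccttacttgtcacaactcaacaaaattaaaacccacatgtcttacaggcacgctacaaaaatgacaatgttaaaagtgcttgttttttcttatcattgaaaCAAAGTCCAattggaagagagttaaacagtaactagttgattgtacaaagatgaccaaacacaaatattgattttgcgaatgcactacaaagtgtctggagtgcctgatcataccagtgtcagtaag
Adh1 (chr3:138277335-138277634, plus strand): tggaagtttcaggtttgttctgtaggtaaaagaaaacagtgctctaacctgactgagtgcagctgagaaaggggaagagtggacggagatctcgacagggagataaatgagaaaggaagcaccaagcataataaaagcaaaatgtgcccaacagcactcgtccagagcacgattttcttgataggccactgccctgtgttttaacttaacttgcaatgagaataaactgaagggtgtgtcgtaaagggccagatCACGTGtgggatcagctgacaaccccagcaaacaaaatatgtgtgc
B3gnt7 (chr1:86302971-86303270, plus strand): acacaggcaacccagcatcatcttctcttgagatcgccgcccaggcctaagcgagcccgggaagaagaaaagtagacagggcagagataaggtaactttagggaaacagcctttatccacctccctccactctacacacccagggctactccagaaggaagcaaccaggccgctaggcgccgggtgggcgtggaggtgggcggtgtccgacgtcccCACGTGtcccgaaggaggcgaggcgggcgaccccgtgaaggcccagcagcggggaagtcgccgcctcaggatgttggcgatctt
Slc51a (chr16:32487830-32488129, minus strand): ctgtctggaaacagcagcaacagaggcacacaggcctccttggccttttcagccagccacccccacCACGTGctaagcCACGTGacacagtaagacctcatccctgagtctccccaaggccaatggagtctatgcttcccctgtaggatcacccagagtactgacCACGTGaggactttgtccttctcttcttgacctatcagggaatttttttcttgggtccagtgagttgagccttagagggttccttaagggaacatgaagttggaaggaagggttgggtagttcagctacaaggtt
A promoter was found for 7 of the 10 genes with the largest rises and for 7 of the 10 with the largest falls. Foxq1, Hoxb13, Osr2, Clca4a and Hoxb6 were among those with no match. The motifs were searched on both strands. CACGTG was in 4 of the 7 rising genes (Adh1, B3gnt7, Nxpe4, Robo2) and in 2 of the 7 falling genes (Mgll, Slc51a), and 8.09% of the 27025 genes with a promoter hold it. The TCF/LEF motif CTTTGA was in 0 of the 7 and 1 of the 7 (Tmigd1), against 18.2% of all genes. The HNF4 motif was in Cyp2c68 alone of these 14 genes, 77 bases before the start, against 0.555% of all genes. The CDX motif TTTATNG was in none of the 14, against 12.5%.

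Cyp2c68, a cytochrome P450 gene on the minus strand of chromosome 19 (39688834 to 39741054), rose the most. It had 0.0393, 0.0308 and 0.0998 normalised UMIs per epithelial cell at 24 h and 0.614, 0.633 and 0.905 at 48 h. The days did not overlap, which was a condition for naming the largest changes and held for 23.7% of all genes tested. The change was 3.57 log2 (SE 0.398, adjusted p 0.000396 in limma). In anti-GFP mice it was 1.44 log2, and the difference between the arms did not pass (2.13 log2, adjusted p 0.178). Without EnteroPrecur cells it was 2.86 log2 (adjusted p 0.00157 in limma), and without both mice of high mitochondrial share 3.11. Within single types, AltEnteroPC had 0.136, 0.0552 and 0.141 and then 0.813, 0.743 and 1.54 (3.13 log2, adjusted p 0.000567 in limma). Pooled TA cells had 0.00904, 0.0200 and 0.0280 and then 0.205, 0.195 and 0.234 (2.98 log2, adjusted p 0.0184 in limma). The rise was thus present in cells annotated as AltEnteroPC and as TA. TA2 alone, which leaves out the uneven TA1, had no called gene. The part of free RNA or of cells between types in these values was not tested.

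Foxq1, a forkhead transcription factor, had 0.123, 0.0945 and 0.0888 at 24 h and 0.420, 0.507 and 0.552 at 48 h (2.17 log2, SE 0.230, adjusted p 0.000151 in limma). Adh1 had 0.714, 0.287 and 0.676 and then 1.89, 2.17 and 2.97 (2.13 log2, SE 0.354, adjusted p 0.00457 in limma). Gstm1, a glutathione transferase, had 0.367, 0.444 and 0.512 and then 1.35, 1.53 and 1.46 (1.70 log2, adjusted p 0.00151 in limma). Each of the 3 was also called without EnteroPrecur cells, at 1.60, 1.75 and 1.51 log2. In AltEnteroPC alone Adh1 went from 0.384, 0.180 and 0.458 to 1.35, 1.89 and 2.32 (2.47 log2, adjusted p 0.0489 in limma). The other large rises included Nxpe4 (2.45 log2), Robo2, a Slit receptor (2.25), Hoxb13, a homeobox gene of the hindgut (2.00), B3gnt7 (1.99) and the keratin Krt36 (1.67). Hoxb13 changed by 1.93 log2 in anti-GFP mice as well, where its adjusted p was 0.11 in limma.

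**Figure D3:**
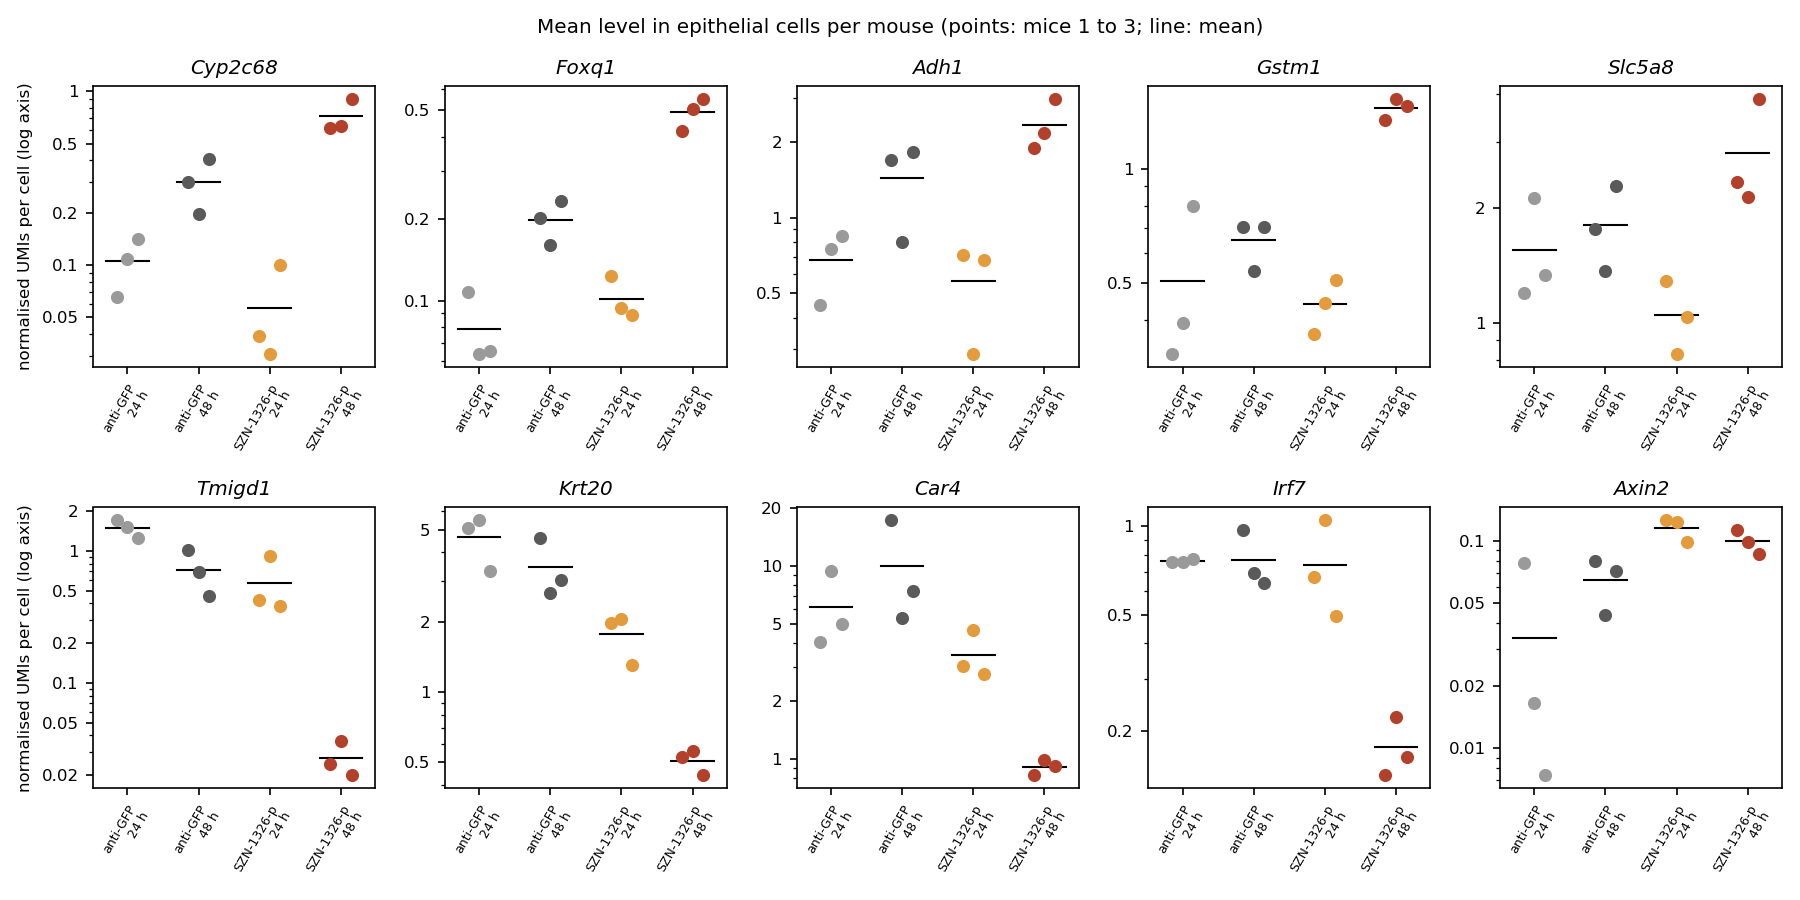
Mean level per mouse in epithelial cells (normalised UMIs per cell, log axes that differ between panels) of 10 genes, by arm and time. Points are mice and lines are means. The upper row rose in SZN-1326-p mice, as Cyp2c68 did to 0.614 to 0.905, while Tmigd1, Krt20, Car4 and Irf7 fell and Axin2 overlapped between the days.

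Transporters of the absorptive cell changed in both directions. Of 22 ion and water transport genes, 3 rose and 1 fell, with a median of 0.20 log2 against -0.08 over all genes tested. Slc5a8, which carries short-chain fatty acids with sodium, had 1.29, 0.827 and 1.03 and then 2.35, 2.14 and 3.89 (1.37 log2, adjusted p 0.00714 in limma). Aqp4, a water channel of the basolateral membrane, had 4.36, 2.29 and 4.52 and then 8.62, 9.23 and 8.81 (1.32 log2, adjusted p 0.0327 in limma). It changed by 1.27 log2 in anti-GFP mice. Slc16a1, a lactate and butyrate carrier, rose by 0.71 log2. Slc9a3, the apical sodium/proton exchanger, had 0.809, 1.09 and 0.726 and then 0.209, 0.257 and 0.170 (-1.99 log2, adjusted p 0.00206 in limma). Without EnteroPrecur cells the 3 rises did not pass, while Slc9a3 was still called at -1.37 log2.

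Part of the genes of the mature colonocyte and its brush border fell. Tmigd1, an adhesion protein of differentiated enterocytes on chromosome 11 (76902159 to 76916587), had 0.425, 0.921 and 0.380 at 24 h and 0.0242, 0.0362 and 0.0199 at 48 h. The change of -3.90 log2 (SE 0.311, adjusted p 6.17e-06 in limma) was the largest fall. Car4, a membrane carbonic anhydrase, had 3.05, 4.64 and 2.75 and then 0.826, 0.993 and 0.926 (-1.88 log2, adjusted p 0.00976 in limma), against 0.62 in anti-GFP mice. Krt20, the keratin of surface cells, had 1.98, 2.07 and 1.31 and then 0.527, 0.561 and 0.440 (-1.77 log2, adjusted p 0.00151 in limma).

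Of 36 colonocyte marker genes 1 rose and 12 fell, with a median of -0.57 log2, and of 20 brush border genes none rose and 8 fell, with a median of -0.62. Both medians were closer to 0 in anti-GFP mice, at 0.05 and -0.20. Falls included Slc51a, a bile acid exporter subunit (-3.34 log2), Clca4a (-2.87), Alpi, the intestinal alkaline phosphatase (-2.30), Mep1b, a brush border protease (-1.75), and Espn, which bundles microvillus actin (-1.74). Of 26 fatty acid and bile acid handling genes 3 fell and none rose, namely Apob, Dgat2 and Abcg2, by 2.01, 1.46 and 1.09 on the log2 scale. The median of that list was -0.12, near the -0.08 of all genes. The lipase gene Mgll, outside that list, fell by 2.02. Without EnteroPrecur cells the counts were 3 colonocyte genes and 5 brush border genes lower. On the mean of deposited log2 values no gene of either list fell past the test. The summed colonocyte markers went from 29.9, 62.2 and 45.3 to 19.5, 23.5 and 19.0 normalised UMIs per cell beside the shares of AltEnterocyte2 and AltEnterocyte3, whose part in these falls was not tested. Car1 (-1.50 log2, adjusted p 0.0756 in limma) and Guca2a (-1.17, adjusted p 0.0556) did not pass.

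Few division genes passed the test, although nearly all had a negative change beside the lower share of TA cells. Of 36 DNA replication genes, 3 fell and none rose, and 34 had a negative change, with a median of -0.63 log2. Of 38 mitosis genes none passed, all 38 were negative, and the median was -0.47. In anti-GFP mice those medians were 0.14 and -0.17. Uhrf1, which copies DNA methylation at replication, had 0.516, 0.451 and 0.351 and then 0.209, 0.188 and 0.145 (-1.23 log2, adjusted p 0.0115 in limma). The helicase subunit Mcm3 and the nuclease Fen1 fell by 1.05 and 0.95 on the log2 scale. Mki67 had 4.04, 1.82 and 1.43 and then 1.03, 1.42 and 1.09 (-0.90 log2, adjusted p 0.331 in limma). Without EnteroPrecur cells the mitosis median was 0.05 and the replication median -0.31, with no gene of either list past the test. With only cells of at most 20% mitochondrial UMIs, Mcm3 and Fen1 turned to 0.33 and 0.48.

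Of 22 polyamine and nucleotide synthesis genes 1 rose and 2 fell, with a median of -0.25 log2. Phgdh, the entry enzyme of serine synthesis, fell by 1.16 and the one-carbon enzyme Mthfd2 by 1.03 on the log2 scale, while the purine enzyme Paics rose by 0.61. Odc1, the first enzyme of polyamine synthesis, changed by -0.61 log2 and did not pass (adjusted p 0.0756 in limma). Of 38 ribosome biogenesis genes 2 fell, with a median of -0.28 log2 against 0.33 in anti-GFP mice. All 30 oxidative phosphorylation genes stayed short of the test, 29 with a positive change and a median of 0.36 log2, against 0.41 in anti-GFP mice. Without 24 h mouse 1, whose library was rich in long transcripts, the median was 0.12 log2, with 26 positive.

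None of the direct Wnt readouts passed the test between the days. Axin2, a feedback inhibitor and target of the pathway, had 0.126, 0.123 and 0.0984 at 24 h and 0.113, 0.0988 and 0.0865 at 48 h (-0.20 log2, adjusted p 0.855 in limma). The days overlapped. Myc, a growth regulator and Wnt target, had 0.301, 0.142 and 0.181 and then 0.219, 0.231 and 0.185 (0.08 log2, adjusted p 0.915 in limma). Lgr5, the stem cell receptor for R-spondins, had 0.0395, 0.0655 and 0.0208 and then 0.0151, 0.0387 and 0.0134 (-0.67 log2, adjusted p 0.557 in limma). The feedback ubiquitin ligase Rnf43 changed by 0.04 and Ccnd1 by -0.63 log2, and neither passed. None of the 13 Wnt target genes tested passed in either direction, with a median of -0.19 log2 against 0.44 in anti-GFP mice. Of the 13, 1 was higher and 2 lower without overlap, against 867 and 1694 of all 10795 genes. All 13 had a negative difference between the arms, with a median of -0.69 log2 against -0.10 over all genes, and none passed. In pooled TA cells 12 of 14 Wnt target genes had a negative change, with a median of -0.35 log2 against -0.01, and none passed. Of 10 stem cell genes, Prom1 fell from 2.61, 2.68 and 2.16 to 1.29, 1.25 and 1.14 (-1.01 log2, adjusted p 0.00948 in limma) and the median was -0.06. The median of that list was 0.22 without EnteroPrecur cells. Of these 10 genes 5 had a positive and 5 a negative change, and 3 were higher and 1 lower without overlap between the days. The 6 stem markers summed to 6.26, 5.25 and 4.66 normalised UMIs per epithelial cell at 24 h and 6.59, 6.74 and 6.87 at 48 h. In anti-GFP mice that sum was 5.46, 3.75 and 5.32 and then 5.04, 4.31 and 5.05. Axin2 and Lgr5 are among the 6 markers, but at no more than 0.126 each in SZN-1326-p mice they add little to the sum. Both had negative changes, so the sum follows more abundant members and not the list as a whole.

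**Figure D4:**
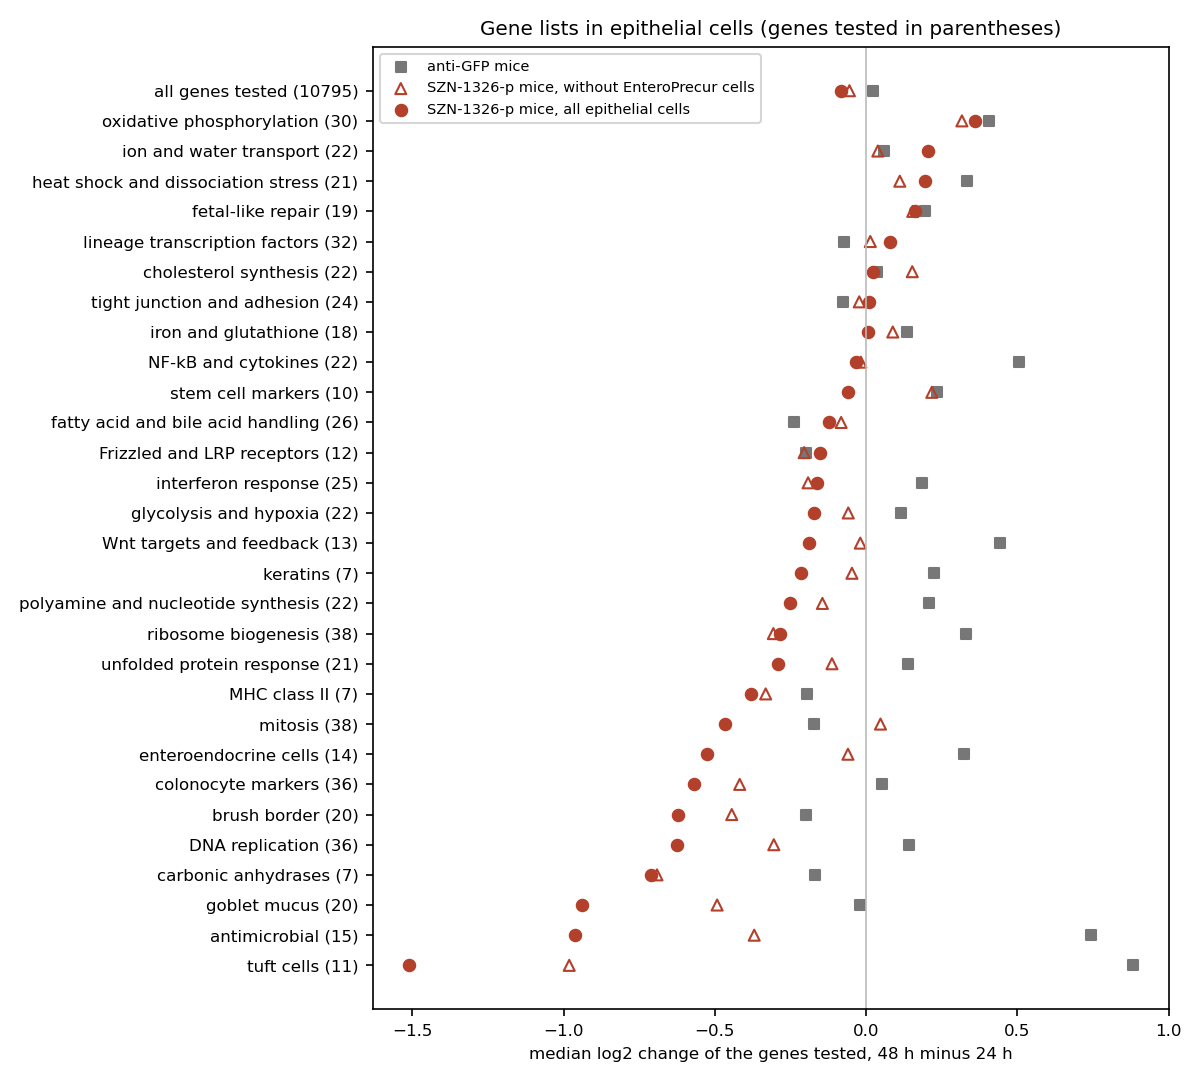
Median log2 change (48 h minus 24 h) of the tested genes of each list in epithelial cells. Filled circles are SZN-1326-p mice, open triangles the same mice without EnteroPrecur cells, and squares anti-GFP mice. Tuft cell genes lie at -1.51 in SZN-1326-p mice and 0.88 in anti-GFP mice, and all genes tested at -0.08 and 0.02.

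Some genes of tuft and goblet cells fell. Of 11 tuft cell genes 3 fell and all 11 had a negative change, with a median of -1.51 log2, while all 11 were positive in anti-GFP mice (median 0.88). Avil, an actin-bundling protein of tuft cells, had 0.0999, 0.119 and 0.262 and then 0.0445, 0.0283 and 0.0149 (-2.07 log2, adjusted p 0.0041 in limma). Rgs13 and Ltc4s, the leukotriene C4 synthase, fell by 1.75 and 1.51 on the log2 scale. Of 20 goblet mucus genes 3 fell, with a median of -0.94. These were Spdef, the goblet cell transcription factor (-1.20), the membrane mucin Muc4 (-0.99) and the mucin glycosyltransferase Galnt12 (-0.86). Muc2, the main secreted mucin, had 61.0, 86.9 and 112 and then 35.1, 9.19 and 42.7 (-1.81 log2, adjusted p 0.0562 in limma). Without EnteroPrecur cells no gene of the tuft or goblet lists passed. These changes stand beside the lower shares of tuft and BasalGoblet cells, and the level within those types was not tested, since they held too few cells per mouse.

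A few interferon and acute-phase genes fell. Irf7, a transcription factor of the interferon response, had 0.674, 1.05 and 0.492 and then 0.141, 0.224 and 0.163 (-1.97 log2, SE 0.249, adjusted p 0.000595 in limma). Of 25 interferon genes 5 fell and none rose, among them Ifit1 (-2.10 log2) and Zbp1 (-1.03), but the median was -0.16 and so near that of all genes. Without EnteroPrecur cells 1 of the 5 was called, and likewise 1 without 24 h mouse 1. Saa1, an acute-phase protein, had 13.3, 25.7 and 14.2 and then 3.31, 5.79 and 5.57 (-1.83 log2, adjusted p 0.0112 in limma), against 0.59 in anti-GFP mice. It was the single member of 15 antimicrobial genes to pass. Reg3b ranged from 7.68 to 96.3 at 24 h and from 10.6 to 36.9 at 48 h and overlapped. That list's median of -0.96 log2 turned to 0.19 without both mice of high mitochondrial share.

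Among cytokine genes 2 rose. Ccl28, a mucosal chemokine, rose by 1.15 log2 (adjusted p 0.00833 in limma), and by 0.98 without EnteroPrecur cells. Il18 had 0.963, 1.17 and 1.80 and then 2.66, 2.72 and 2.93 (1.12 log2, adjusted p 0.0302 in limma), with the same change of 1.12 in anti-GFP mice. They were the 2 called of 22 NF-kB and cytokine genes, whose median was -0.03. F3, tissue factor, rose by 1.15 and was the single gene called of 19 in the fetal-like repair list. Among 32 lineage transcription factors Hnf4g, a nuclear receptor of absorptive cells, rose by 0.84, while Spdef and Creb3l3 fell. Slc11a2, an iron importer, fell from 0.683, 1.09 and 0.501 to 0.314, 0.214 and 0.252 (-1.45 log2, adjusted p 0.00714 in limma).

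Markers of other lineages within epithelial cells were set beside these results. Summed fibroblast markers were 0.431, 0.270 and 0.587 normalised UMIs per cell at 24 h and 0.826, 0.499 and 0.434 at 48 h. Summed myeloid markers were 0.686, 1.02 and 0.998 and then 1.53, 1.17 and 0.981. Epithelial cells with at least 2 markers of another lineage made up 9.01%, 11.6% and 19.4% and then 23.1%, 28.5% and 13.1%. The days overlapped in all 3 measures. Of the fibroblast list 9 of 9 tested genes had a positive change, with a median of 0.57 log2 and 0.47 in anti-GFP mice. Without the cells that carry 2 such markers 307 genes were called, 91 higher and 216 lower, near the 332 of all cells.

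The difference of the time change between the arms was tested in the same fit, and 15 of 10795 genes (0.139%) passed, 1 higher (0.00926%) and 14 lower (0.13%), with 990 (9.17%) at an unadjusted p under 0.05. These included Tmigd1 (-2.81 log2, SE 0.440), Avil (-2.72, SE 0.492) and Irf7 (-1.95, SE 0.351), each with an adjusted p of 0.0360 in limma. On the mean of the deposited log2 values the difference for Tmigd1 turned to 0.019 (adjusted p 0.99 in limma). Irf7 had means of 0.761 and 0.768 in anti-GFP mice at 24 h and 48 h. The single gene higher was Klhl24, an ubiquitin ligase adaptor, with 0.325, 0.359 and 0.366 and then 0.571, 0.606 and 0.712 in SZN-1326-p mice (1.09 log2 over anti-GFP, SE 0.198). For Hspa1b, a heat shock protein, the difference of -2.98 log2 came with means of 0.472 and 3.61 in anti-GFP mice and 0.855 and 0.785 in SZN-1326-p mice. Leaving out 1 mouse at a time gave 0 to 21 such calls, and without EnteroPrecur cells there were 0.

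Of the 11 types with enough cells in all 6 mice, 7 held at least 1 called gene, with 50 calls in all. The fit of a type held the mice with enough of its cells, 9 to 16 of the 16. AltEnteroPC had 3 of 10524 (0.0285%), all higher: Cyp2c68, Adh1 and Slc37a2, a sugar-phosphate transporter. Slc37a2 had 0.0304, 0.00935 and 0 and then 0.348, 0.764 and 1.18 (adjusted p 0.0489 in limma). Its list medians were -0.90 log2 for 37 mitosis genes, all negative, and -0.09 for 36 colonocyte genes, against -0.01 over all genes. TA2 had 0 of 10673 in limma, with 502 (4.7%) at an unadjusted p under 0.05. Pooled TA cells had 1 of 10900 (0.00917%), Cyp2c68. EnteroPrecur could not be compared over time, since no 24 h mouse held 20 of its cells.

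Activated neutrophils (ActNeutrophil), fitted on 12 mice with 8 residual degrees of freedom, had the most calls of the immune types, with 21 of 10335 genes (0.203%), 6 higher (0.0581%) and 15 lower (0.145%). Cxcr4, the receptor that holds neutrophils in marrow and marks aged ones, had 5.33, 5.15 and 6.40 and then 9.10, 18.9 and 12.1 (1.19 log2, adjusted p 0.0302 in limma). Glycerol kinase Gk, the thiol enzyme Glrx and the actin-binding Tagln2 fell by 1.39, 1.38 and 1.42 on the log2 scale. Guca2a, an epithelial hormone, had 1.92, 2.77 and 1.23 in these neutrophils and then 0.176, 0 and 0.397 (-4.36 log2, adjusted p 3.27e-06 in limma). It also fell in macrophages, as the single call of 11197 genes (0.00893%, -2.91 log2, adjusted p 0.000595 in limma). Its epithelial level was 8.51, 14.3 and 12.1 and then 5.28, 5.21 and 4.72, and the part of free RNA in the neutrophil and macrophage values was not tested. Monocytes of the type InjuryMono2 had 0 calls in limma, with 545 (5.24%) at an unadjusted p under 0.05.

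Fibroblast types held 25 of the 50 calls, 24 of them higher at 48 h, and 17 of the 25 were in InjuryCryptFB1 alone. These types were BaseCryptFB2, CryptFB1, InjuryCryptFB1, InjuryCryptFB2 and MyoFB, with 11575, 11403, 10838, 11455 and 11223 genes tested. The other types had 10335 to 11487 genes tested each. The fibroblast part of the calls was thus near the fibroblast part of the genes tested. InjuryCryptFB1, fitted on 9 mice with 5 residual degrees of freedom, had 17 of 10838 genes (0.157%), 16 higher (0.148%) and 1 lower (0.00923%). Fbln5, an elastic fibre protein, had 1.10, 1.23 and 1.11 and then 4.19, 3.74 and 3.30 (1.69 log2, adjusted p 0.00358 in limma). Cpxm1, a secreted carboxypeptidase-like protein, rose by 1.76 and Adh1 by 1.88 log2, and Alpl, the tissue phosphatase, fell by 2.96. In CryptFB1, 3 of 11403 genes (0.0263%) were higher, among them Cxcl13, a B cell chemokine, with 1.95, 1.52 and 1.58 and then 6.29, 5.57 and 6.57 (1.87 log2, adjusted p 0.00528 in limma). The other 2 were Tsc22d3, a glucocorticoid-induced gene (2.32 log2), and the sodium channel Scn7a (2.30).

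InjuryCryptFB2 had 2 of 11455 (0.0175%), Osr1 (2.25 log2) and Edil3 (1.47). Myofibroblasts (MyoFB) had 3 of 11223 (0.0267%), Rcan2 (2.62), Fmo2 (1.73) and Abi3bp (1.22), all higher. BaseCryptFB2 and VascEndo, the vascular endothelium, had 0 calls in limma, with 726 (6.27%) and 441 (3.84%) genes at an unadjusted p under 0.05. Over all types, the 50 calls became 113 without 24 h mouse 2 and 33 without 48 h mouse 3.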

How the data were processed

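The 16 libraries were made with the version 3 droplet kit of 10x Genomics. Cell Ranger 3.0.2 and the build mm10 are named in the submitters' processing notes. The values deposited by the authors were log2 values: 1 was added to a UMI count scaled by cell. After un-logging, 100% of 60867816 entries were whole multiples of the lowest value in their cell (tolerance 1e-06). The columns of other text labels in the annotation were deposited by the authors and gave mouse, layer and cell type. Their size factor method, cell filters and doublet treatment are not given in the sources used here, and no doublet caller was run. Over all 16 libraries 64 barcode sequences occurred in more than 1 library (129 cells).

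Un-logged values were averaged per mouse, and log2 of the mean plus 0.01 was tested with limma 3.58.1 (trend, robust) in R 4.3.3. All 16 mice entered the epithelial fit of 6 groups, with 10 residual degrees of freedom. The fit within a type held the 9 to 16 mice with at least 20 of its cells, with 5 to 10 residual degrees of freedom. P-values were adjusted by Benjamini-Hochberg at 0.05. Genes needed 0.05 normalised UMIs per cell in 2 mice. Log2 changes are on the scale of log2(level + 0.01), which understates the change of low genes. Standard errors are printed for some of them. The edgeR test planned for raw counts was not used, since the deposited unit was log2. Shares were compared as log2 with 0.5 cell added, by two-sided exact permutation in R, and by limma beside it. The exact binomial intervals were computed in Python 3.11.15 with scipy 1.17.1. A count of 0 was given the limit of 3 cells, which, like the exact 95% intervals, covers counting error only. The gene test and the permutation test were checked on simulated data.

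Members, gene lists and alternatives were chosen with earlier results of these data known. Named were the 10 genes with the largest change in each direction that passed, given at least 0.2 normalised UMIs per cell in the higher group and no overlap between mice. Up to 4 members past the test of each list, a set of genes whatever their result, and 5 per direction and cell type were added, and not all are printed. Of the 10 with the largest rises, 1 is not reported here. No gene models and no ribosomal protein, mitochondrial, immunoglobulin or haemoglobin genes are named, though all were counted. Gene coordinates are from GENCODE vM21 and promoters from RefSeq (GRCm38.p6). Alternatives were another filter, pseudocount, scaling, weighting and set of cells, each mouse left out in turn, and replicate numbers as a block.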

Additional observations from a re-analysis of the deposited data

Results flagged for a closer look

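Between the arms, the change from 24 h to 48 h in epithelial cells differed for 15 genes past an adjusted p of 0.05 in limma. The values below are the log2 change in SZN-1326-p mice minus that in anti-GFP mice (3 mice per arm and time), with the adjusted p of limma. It was -3.52 for Ifit2, -3.20 for Srpx2, -2.98 for Hspa1b, -2.81 for Tmigd1, -2.72 for Avil, -2.03 for Hsph1, -1.95 for Irf7, -1.69 for Lpo and -1.43 for P4ha1, and 1.09 for Klhl24, each with an adjusted p of 0.0360. It was -1.76 for Lhfpl2 and -1.59 for Cyp2d34, with an adjusted p of 0.0404. It was -1.52 for Trmt61a and -1.43 for Srm, with 0.0483, and -3.42 for Pik3r5, with 0.0485. Srpx2 was low, at 0.0378, 0.0351 and 0.0487 and then 0.00855, 0.0166 and 0.00298 normalised UMIs per cell in SZN-1326-p mice. In anti-GFP mice it had 0.0166, 0.0130 and 0.0157 at 24 h and 0.0884, 0.0526 and 0.0900 at 48 h. Among injured mice Srpx2 reached the filter level of 0.05 only in anti-GFP mice at 48 h. Its entry into the test and its difference of -3.20 are thus not independent.

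The arms contributed unequally to these differences. For Hspa1b and Hsph1, both heat shock proteins, anti-GFP mice changed by 2.88 and 1.93 log2 and SZN-1326-p mice by -0.10 and -0.10. For Irf7 and Lhfpl2 the level fell in SZN-1326-p mice, while in anti-GFP mice the mean of Irf7 was 0.761 and then 0.768. For Ifit2 the arms moved in opposite directions, at -1.76 log2 in the treated mice and 1.77 in the control mice. What sets these genes apart was not tested.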

How the results depend on the processing

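Without cells over 20% mitochondrial UMIs the 332 epithelial calls became 3, with equal weight of AltEnteroPC and TA2 15, without EnteroPrecur cells 51, without both mice of high mitochondrial share 14 (all of them among the 332), and on the mean of the deposited log2 values 199. Leaving out 1 mouse gave 90 to 267, with the fewest without 24 h mouse 2. The causes of these shifts were not tested, except that fewer cells or mice entered. No filter gave 232, a pseudocount of 0.1 229, median-of-ratios scaling 322 and voom weights 301.

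Some genes turned sign. Without cells over 20% mitochondrial UMIs Mcm3 was 0.33, Fen1 0.48, Rnf43 -0.42 and Myc -0.076. With equal weight of types Ces2a was 0.19, Ifit1 0.00185, Rnf43 -0.13, Lgr5 0.58 and Myc -0.59. With voom weights Rnf43 was -0.031 and Myc -0.23, without EnteroPrecur cells Axin2 was 0.00622, and without both mice of high mitochondrial share Myc was -0.054 and Reg3b 0.54. Over single mice left out, Myc ranged from -0.14 to 0.37, Rnf43 from -0.12 to 0.15 and Reg3b from -1.66 to 0.16. Without 24 h mouse 2 Myc was -0.14 and Reg3b 0.16, and Rnf43 was -0.11 without 24 h mouse 3 and -0.12 without 48 h mouse 1.

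The 15 differences between arms became 1 with no filter, 6 with the 12 injured mice alone, 6 with a pseudocount of 0.1, 25 on deposited log2 values (where Tmigd1 was 0.019), 48 without cells that carry 2 markers of another lineage, and 5 without the 4 libraries rich in long transcripts. They became 0 without cells over 20% mitochondrial UMIs, with equal weight, with voom and without EnteroPrecur cells, and 0 to 21 over single mice left out. The 2 anti-GFP calls became 3 to 200 over single mice left out, the most without anti-GFP 24 h mouse 3. The 50 calls within types became 161 with the 6 mice alone, and 33 to 113 over single mice left out. With a minimum of 50 cells 4 types remained, with 25 calls against 8 in the same types.

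Share changes past the test numbered 0 by permutation, which cannot pass here, and 4 by limma. Differences between arms in shares numbered 0, and 0 to 2 over single mice left out. Without cells over 20% mitochondrial UMIs pooled TA cells were 0.43 and stem and TA cells 0.60 log2. The immune compartment's change ranged from -0.21 to 0.016 log2 over single mice left out, the highest without 48 h mouse 3, against -0.09 with all 6.

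In the fit with a replicate block 428 epithelial genes were called in SZN-1326-p mice and 12 in anti-GFP mice, with 17 differences between arms and 67 calls within types. The numbers did not pair the mice: deviations of same-numbered mice correlated at 0.03, 0.10 and 0.06 with SZN-1326-p and at -0.12, -0.14 and -0.15 with anti-GFP.

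With 3 mice per day the fit resolved mainly large changes, and only 72 to 193 epithelial cells at 24 h and 56 to 98 at 48 h were left per mouse under the mitochondrial limit. Types under 20 cells in any of the 6 mice, EnteroPrecur among them, could not be tested over time.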

Other observations

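Compartment shares of all cells in SZN-1326-p mice went from 48.0% to 39.1% for epithelium, from 20.7% to 19.7% for immune cells and from 31.2% to 41.3% for stroma, as means of 3 mice per day. The exact two-sided permutation p was 0.3, 0.6 and 0.4, where 0.1 is the smallest possible. Preparation and sorting also set these shares.

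Heat shock and dissociation stress genes, a list of 21 tested in epithelial cells, had a median change of 0.19 log2 in SZN-1326-p mice, with none past the test in limma. In anti-GFP mice the median was 0.33 and 2 passed. Unfolded protein response genes (21 tested) had a median of -0.29 log2 and enteroendocrine genes (14 tested) of -0.53, with none past the test in either list.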
